A study of Mus musculus with 48 samples.

Results

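The distal part of Vκ sub-TAD 3 was taken as the 360 kb of mouse chromosome 6 from chr6:68160001-68520000 (mm9), 2513 to 2153 kb from the Jκ1 break. The window was set by coordinates alone, and 15 of the 138 Vκ break sites found in the V region, the stretch of chromosome 6 that holds the Vκ segments, lie in it. Its junctions numbered 778008 of 7265223 V-region junctions over all libraries. A break site was a position with at least 30 pooled signal end junctions in arrested WT libraries, no higher position within 50 bp, and CAC directly after it or 1 base to either side. The sites were therefore found with the arrested WT signal end libraries. Differences of single sites between those libraries and others are given below as a description, with no p, and nothing is read from the counts of sites called there.

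In V(D)J recombination RAG1/2 cuts between a gene segment and its recombination signal sequence, a heptamer and a nonamer held apart by a spacer. Each cut leaves a hairpin-sealed coding end, which must be opened and is usually trimmed, and a blunt signal end. NHEJ, which Ku70 and Ku80 start, normally joins coding end to coding end and signal end to signal end. Alternative end joining (A-EJ) takes over without Ku and tends to resect ends. The study describes its joints in arrested cells as mostly direct, with short microhomologies used more than in NHEJ. A joint between a coding end and a signal end is a hybrid joint.

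The assay, HTGTS-JoinT-seq, starts from 1 known broken end at Jκ1 (the bait, either the coding or the signal end) and lists every prey position joined to it. The 48 libraries came from vAbl proB cells, mouse progenitor B lines transformed by the Abelson kinase, of the WT and Ku70-/- genotypes. For each genotype and bait there were 3 libraries from cycling cells and 3 each from cells arrested for 96 h with STI-571 (3 µM), an Abl kinase inhibitor, given with DMSO, with L67 (5 µM) or with L82-G17 (25 µM). L67 and L82-G17 are DNA ligase inhibitors. The methods name 1 clone for each of the WT and Ku70-deficient lines, so Ku70 loss and other differences between the lines cannot be told apart. The study describes its experiments as biological repeats, but the labels do not tie single libraries to cultures, so p-values measure the spread between these libraries. V-region junctions numbered 2921 to 29432 in the 12 cycling libraries and 87985 to 362359 in the 36 arrested ones, and the 95% binomial interval (Wilson) of a window share reached 0.954 percentage points to either side in cycling and 0.224 in arrested libraries. These intervals cover counting error only, as duplicate reads were kept. Replicate 1 of Ku70-/- with STI-571 + DMSO stood apart from both baits: from the coding end it held 134 distinct window junctions against 1233 and 1173 in the other two, from the signal end 95 against 1240 and 1024. The most frequent single joint made up 11.5% and 38.9% of its window junctions, against at most 1.16% in the other two. The main results that rest on this library are given with and without it, a choice made after seeing the data.

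Of the 15 sites, 14 face Jκ1 in the deletional orientation, and 1, U6, is inversional. In the V region as a whole 63 sites were deletional and 75 inversional, and in the neighbouring proximal part of the sub-TAD 3 of 14 were deletional. GENCODE vM1 places 8 sites at the 3′ end of a Vκ gene. The other 7, numbered U1 to U7 here by position, lie beside no gene of that annotation. RefSeq, in GRCm38 order, lists the pseudogenes Igkv1-108, Igkv2-107, Igkv11-106 and Igkv2-105 between Igkv2-109 and Igkv16-104. Between Igkv15-103 and Igkv14-100 it lists the pseudogenes Igkv15-102, Igkv15-101-1 and Igkv15-101, and Igkv20-101-2, which it does not class as a pseudogene. The U sites were not matched to these entries one by one. From distal to proximal the breaks were at chr6:68170701 (Igkv2-112), 68206864 (Igkv14-111), 68221262 (Igkv1-110), 68253153 (Igkv2-109), 68262354 (U1), 68289990 (U2), 68325816 (U3), 68340293 (U4), 68376067 (Igkv16-104), 68387920 (Igkv15-103), 68399714 (U5), 68416119 (U6), 68425096 (U7), 68469472 (Igkv14-100) and 68492417 (Igkv1-99).

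Break sequences are shown for 7 sites, the 5 leading ones and Igkv14-111 and U1, which differed between genotypes in opposite directions, for U5, which has a second pileup beside it, and for the inversional U6. Each line reads 5′ to 3′ on the strand of the segment from the mm9 assembly, 20 coding bases first, with the heptamer and the nonamer in capitals.
Igkv14-111: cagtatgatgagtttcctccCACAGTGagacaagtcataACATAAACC
Igkv1-110: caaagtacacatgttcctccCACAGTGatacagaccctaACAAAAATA
Igkv2-109: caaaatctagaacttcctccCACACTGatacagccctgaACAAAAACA
U1: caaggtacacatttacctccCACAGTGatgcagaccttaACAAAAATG
U2: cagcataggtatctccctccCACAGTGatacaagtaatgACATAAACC
Igkv16-104: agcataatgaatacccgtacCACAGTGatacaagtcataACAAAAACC
Igkv15-103: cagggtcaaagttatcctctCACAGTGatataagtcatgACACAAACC
U5: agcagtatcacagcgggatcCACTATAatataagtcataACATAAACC
U6: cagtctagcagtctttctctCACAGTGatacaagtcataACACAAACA
The full heptamer CACAGTG stood at 12 of the 15 window sites and at 111 of all 138. The exceptions were Igkv2-109 (CACACTG), U4 (CACAGAG) and U5 (CACTATA). Igkv16-104 and Igkv2-112 had no mismatch to the nonamer ACAAAAACC. U3 had 6, and its 57 signal end junctions were copies of 1 joint in 1 library, so it carries no further result.

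The same 5 sites led the window in both genotypes and from both baits in STI-571 + DMSO libraries: Igkv1-110, Igkv2-109, U2, Igkv16-104 and Igkv15-103. Together they held 78.1 to 82.5% of window junctions in arrested WT libraries from the coding end (median 80.1%, n = 9) and 78.4 to 84.5% from the signal end (median 81.4%). In Ku70-/- the part was 73.1 to 87.0% (median 74.9%) and 76.1 to 92.7% (median 79.4%). Without the low-complexity library the Ku70-/- parts ran up to 79.8% and 84.7%, and Igkv14-111 took the place of Igkv2-109 among the 5 leading sites from the coding end. The group means of the other 10 sites with DMSO ran up to 0.623% of V-region junctions in WT and 0.800% in Ku70-/- from the coding end, and up to 0.627% and 0.480% from the signal end.

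**Figure D1:**
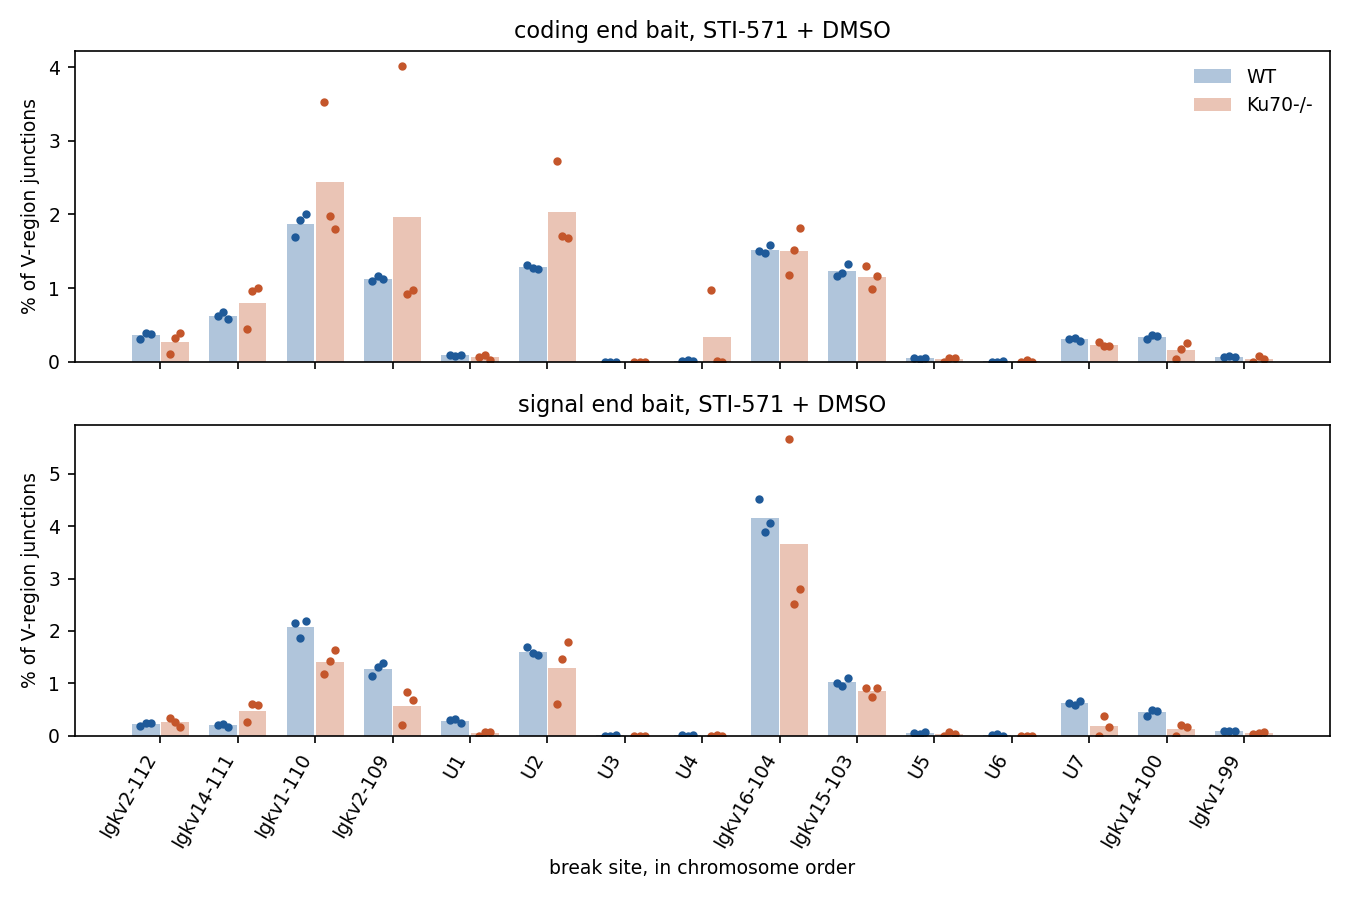
Share of V-region junctions (%) at each of the 15 break sites, in chromosome order, with STI-571 + DMSO; bars are means of 3 libraries and points single libraries, WT in blue and Ku70-/- in orange, coding end bait above and signal end bait below. Igkv16-104 stands highest from the signal end, and the Ku70-/- points far above the others at Igkv1-110, Igkv2-109, U2 and U4 from the coding end, and at Igkv16-104 from the signal end, are the low-complexity replicate 1.

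Igkv16-104 had the highest mean of the window sites from the signal end in each arrested group. In cycling libraries the order differed, with Igkv15-103 at 0.841% against 0.741% for Igkv16-104 in WT and Igkv2-109 at 1.60% against 0.465% in Ku70-/-. In WT with DMSO Igkv16-104 held 1.51, 1.47 and 1.59% of V-region junctions from the coding end and 4.52, 3.90 and 4.07% from the signal end. The signal end libraries all lay above the coding end libraries, by 1.46 ± 0.32 (SE) on the log2 scale. It was the 1 window site of 13 called by limma between baits in WT, where 5.26% of all sites were called. The site list came from the WT signal end libraries, so calls between baits in WT are a description and nothing is read from them. Without the low-complexity libraries 6 of 12 were called against 51.3% of all sites: U1 (1.73), Igkv16-104 (1.46), U7 (1.05) and U2 (0.34) were higher from the signal end and Igkv14-111 (-1.64) and Igkv2-112 (-0.71) lower. All log2 differences of single sites are of junctions per 1000 V-site junctions with the value of 1 junction added, from limma with Benjamini-Hochberg adjustment over all sites tested.

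In Ku70-/- with DMSO Igkv16-104 held 1.18, 1.52 and 1.81% from the coding end and 5.66, 2.52 and 2.81% from the signal end. The signal end libraries were again the higher, the highest being the low-complexity library. No window site passed between baits in Ku70-/- (0 of 13, with 3 at an unadjusted p under 0.05, against 0% of all sites). Without the low-complexity libraries Igkv16-104 was 0.67 ± 0.13 higher and Igkv14-111 0.74 ± 0.14 lower from the signal end (log2 change -0.74), 2 of 12 against 12.4% of all sites.

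In cycling WT signal end libraries Igkv16-104 held 0.357, 1.16 and 0.707%, all below the arrested values above, a log2 difference of 2.65 ± 0.55. Igkv1-99, a minor site, had no junction in any cycling WT library of either bait and 0.0816, 0.0856 and 0.0817% with DMSO from the signal end. It entered the list and passed the filter on low counts through arrested libraries alone, so that it had to differ. These were the 2 of 12 window sites called, where 17.8% of all sites were, and without the low-complexity library 6 of 12 were called against 38.3%. Counting each distinct junction once, 0 of 12 were called against 6.54% of all sites. As the sites were found with the arrested WT signal end libraries, these counts are a description too.

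With the coding end bait 0 of 13 passed with arrest (2 at an unadjusted p under 0.05) against 3.64% of all sites. Without the low-complexity library 2 of 12 passed against 14.7%. They were Igkv1-99, to which the same limit applies, and Igkv2-112, the most distal site, which fell by 1.39 ± 0.33 on the log2 scale (limma adjusted p = 0.0252), from 0.881, 1.18 and 0.815% in cycling WT libraries to 0.315, 0.395 and 0.381% with DMSO. From the signal end Igkv2-112 went the other way in WT, from a mean of 0.0560% in cycling cells to 0.221% with DMSO. That log2 difference was 2.75 ± 1.10 without the low-complexity library and was not called. A fall of this site with arrest was thus seen from the coding end alone.

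The leading site from the coding end with DMSO was Igkv1-110. In Ku70-/- the mean of Igkv16-104 was the higher with L67 (1.95% against 1.84%) and with L82-G17 (2.47% against 1.64%). In WT with DMSO Igkv1-110 held 1.70, 1.93 and 2.00% of V-region junctions from the coding end and 2.16, 1.87 and 2.20% from the signal end. In Ku70-/- it held 3.53, 1.98 and 1.80% and 1.18, 1.42 and 1.63%. The genotypes did not overlap from the signal end and Ku70-/- was lower by 0.56 ± 0.16 (log2 change -0.56), whereas from the coding end they overlapped.

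Igkv2-109, whose heptamer is CACACTG, held 1.10, 1.16 and 1.13% in WT and 4.02, 0.914 and 0.968% in Ku70-/- from the coding end. Its signal end values were 1.14, 1.32 and 1.38% in WT and 0.195, 0.829 and 0.684% in Ku70-/-. The signal end values of the genotypes did not overlap, and the log2 change was -1.40 ± 0.40 and -0.75 ± 0.17 without the low-complexity library. In coding end libraries the low-complexity one alone lay above WT and the other Ku70-/- libraries below it, and without it Ku70-/- fell by 0.22 ± 0.07 on the log2 scale (limma adjusted p = 0.0251).

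U2, with a full heptamer and no annotated gene beside it, ranked with the annotated genes. In WT with DMSO it held 1.32, 1.27 and 1.26% from the coding end and 1.69, 1.57 and 1.55% from the signal end. In Ku70-/- it held 2.72, 1.71 and 1.68% and 0.614, 1.47 and 1.79%. All Ku70-/- coding end libraries exceeded all WT ones, by 0.66 ± 0.18 on the log2 scale (limma adjusted p = 0.0145), or by 0.44 ± 0.13 without the low-complexity library. The signal end libraries of the genotypes overlapped.

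Igkv15-103 held 1.17, 1.21 and 1.33% in WT and 1.30, 0.983 and 1.17% in Ku70-/- from the coding end with DMSO. Its signal end values were 1.000, 0.955 and 1.11% in WT and 0.905, 0.739 and 0.917% in Ku70-/-. The genotypes overlapped from the coding end, and the Ku70-/- libraries lay below the WT libraries from the signal end, a difference that limma did not call.

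Igkv14-111 and U1 differed between genotypes in opposite directions from the signal end. Igkv14-111 held 0.202, 0.219 and 0.174% in WT and 0.252, 0.610 and 0.578% in Ku70-/-, higher by 1.18 ± 0.34 on the log2 scale and by 1.60 ± 0.28 without the low-complexity library. Its coding end values were 0.616, 0.672 and 0.580% in WT and 0.443, 0.956 and 1.00% in Ku70-/-, where the low-complexity library lay below and the other Ku70-/- libraries above WT. U1 held 0.301, 0.322 and 0.238% in WT and 7.03e-04, 0.0652 and 0.0670% in Ku70-/- from the signal end, with a log2 change of -3.95 ± 1.18 that came to -2.08 ± 0.67 without the low-complexity library, which held a single U1 junction.

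In all, 1 of 13 window sites passed between genotypes from the coding end (U2, higher in Ku70-/-), where 23.2% of all sites did. Counting each distinct junction once, 11 of 13 passed, where 63.4% of all sites did. With the signal end bait 4 of 12 were called, where 30.6% were. The median log2 change over the window sites tested was -0.07 against -0.56 over all sites from the coding end, and -0.74 against -0.44 from the signal end. Without the low-complexity library 4 of 12 passed from the coding end against 43.8% of all sites, Igkv14-111 and U2 being higher in Ku70-/- and Igkv2-109 and U7 lower. Then 7 of 12 were called from the signal end against 54.5%, Igkv14-111 being higher and Igkv1-110, Igkv2-109, U1, Igkv16-104, U7 and Igkv14-100 lower. The sites were found with the WT signal end libraries compared here. The signal end calls and medians are therefore a description, and nothing is read from them. Since 1 spread was estimated over the groups of a fit, the low-complexity library also entered the counts within WT.

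With L67 no window site passed in WT from the coding end (0 of 13, with 1 at an unadjusted p under 0.05, against 0% of all sites) or from the signal end (0 of 12, with 0 at an unadjusted p under 0.05, against 0%). In Ku70-/- L67 gave 0 of 13 from the coding end (4 at an unadjusted p under 0.05) against 1.79% and 0 of 12 from the signal end (2 at an unadjusted p under 0.05) against 0%. Without the low-complexity libraries 1 of 12 passed in WT from the coding end against 4.46%, Igkv2-109 at 0.33 ± 0.06 on the log2 scale, 0 of 12 in Ku70-/- from the coding end against 3.57%, and 0 of 12 in each genotype from the signal end against 0%.

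With L82-G17 Igkv16-104 rose in Ku70-/- from the coding end. It held 2.40, 2.14 and 2.86% with L82-G17 against 1.18, 1.52 and 1.81% with DMSO, with no overlap, by 0.73 ± 0.16 on the log2 scale (limma adjusted p = 0.00912). This was the 1 of 13 window sites called, where 8.93% of all sites were. In WT signal end libraries Igkv1-110 fell by 0.64 ± 0.16 on the log2 scale, to 1.49, 1.28 and 1.23% (limma adjusted p = 0.0436), the 1 of 12 called, where 3.60% of all sites were. This call was lost in 15 of 18 fits that left out 1 library, with each distinct junction counted once and with no filter on low sites. In WT from the coding end 0 of 13 passed (3 at an unadjusted p under 0.05) against 5.36%, and in Ku70-/- from the signal end 0 of 12 (4 at an unadjusted p under 0.05) against 1.80%.

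Without the low-complexity libraries 6 of 12 sites passed with L82-G17 in WT from the coding end against 32.1% of all sites. Igkv2-109 (0.55), Igkv2-112 (0.46), Igkv15-103 (0.43) and Igkv16-104 (0.37) were higher on the log2 scale and Igkv14-100 (-0.91) and U7 (-0.41) lower. In Ku70-/- from the coding end 3 of 12 passed against 30.4%, Igkv2-109 (0.64) and Igkv16-104 (0.57) higher and U7 (-0.35) lower. With the signal end bait 1 of 12 passed in WT against 12.5% (Igkv1-110, -0.64) and 1 of 12 in Ku70-/- against 8.04% (Igkv16-104, 0.47).

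The window as a whole took a larger part of V-region junctions in arrested than in cycling cells. Coding end libraries of WT held 7.13, 6.80 and 6.17% in cycling cells and 8.57, 9.03 and 9.16% with STI-571 + DMSO, and Ku70-/- libraries 5.71, 8.10 and 8.0% and 14.6, 9.52 and 9.92%. Signal end libraries of WT held 3.87, 4.12 and 3.18% in cycling cells and 12.9, 12.3 and 12.7% with DMSO, and Ku70-/- 5.12, 7.46 and 5.23% and 9.23, 8.91 and 9.24%. Cycling and arrested libraries of 1 genotype and bait never overlapped. The mean difference within genotype was 3.16 percentage points from the coding end and 6.05 from the signal end (each exact permutation p = 0.005, the smallest its 400 arrangements allow, adjusted p = 0.00923 over 24 tests).

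The window share of the genotypes differed in direction between the baits. With the signal end bait Ku70-/- lay below WT under all 3 treatments with no overlap, by 2.91 percentage points on average: the difference (Ku70-/- minus WT) was -2.91, and -3.50, -3.55 and -1.68 with DMSO, L67 and L82-G17 (exact stratified permutation p = 2.50e-04, adjusted p = 0.000667). With the coding end bait the difference was 1.04 (exact p = 0.014, adjusted p = 0.0224), made up of 2.44 with DMSO, 0.821 with L67 and -0.125 with L82-G17. The call was lost without any 1 of the 3 WT libraries with DMSO (0.986, 1.06 and 1.08; exact p = 0.12375, 0.10025 and 0.08975). Without the low-complexity library the difference was 0.497 (exact p = 0.02175), and the DMSO means were 9.72% in Ku70-/- and 8.92% in WT. With all libraries kept, the difference as a share of all junctions of the library turned to -0.904 (exact p = 0.03525).

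**Figure D2:**
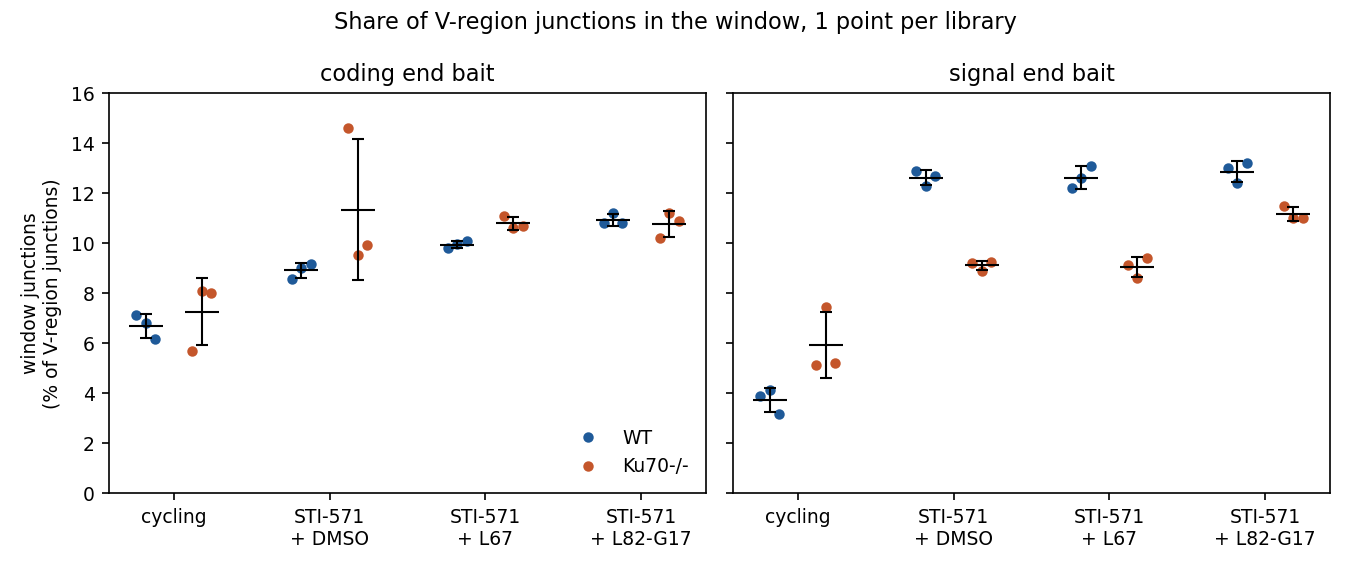
Window junctions as a percentage of V-region junctions, 1 point per library, by treatment, with WT in blue and Ku70-/- in orange, the coding end bait on the left and the signal end bait on the right; lines are the mean and SD of 3 libraries. From the signal end every arrested WT library lies above every arrested Ku70-/- library, from the coding end they lie close together except for the low-complexity library at 14.6%.

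Between baits the WT window share was 2.77 percentage points higher from the signal end (12.7% ± 0.386 against 9.93% ± 0.890, SD, n = 9 arrested libraries; exact stratified permutation p = 2.50e-04). In Ku70-/- it was lower, at 9.79% ± 1.09 against 11.0% ± 1.48 (difference -1.18; exact stratified permutation p = 0.0245, n = 9). It was -2.23 with DMSO and -1.73 with L67, with no overlap in either, and turned to 0.411 with L82-G17, where the libraries overlapped. The DMSO difference rested largely on the low-complexity coding end library, without which the means were 9.13% (signal end) and 9.72% (coding end). The call was lost without any 1 of the 3 DMSO signal end libraries (-1.20, -1.15 and -1.20; exact p = 0.07475, 0.091 and 0.0745). The difference was -0.637 (exact p = 0.038) without the low-complexity coding end library and -0.468 (exact p = 0.652) with each distinct junction counted once. L82-G17 raised the window share from the signal end by 1.17 percentage points over both genotypes (exact permutation p = 0.025, adjusted p = 0.0337): 11.5, 11.0 and 11.0% in Ku70-/- against 9.23, 8.91 and 9.24% with DMSO, a difference of 2.08, while in WT it was 0.255 and the libraries overlapped. As a share of all junctions of the library the difference was 0.619 (exact p = 0.065). The L67 difference from the signal end was -0.0475 (exact permutation p = 0.81).

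From the coding end the inhibitor differences rested on the low-complexity library. With it they were 0.237 for L67 and 0.715 for L82-G17 (exact permutation p = 0.925 and 0.5). Without it they were 1.06 (exact p = 0.005) and 1.54 (exact p = 0.01). With all libraries kept and each distinct junction counted once, they reversed to -0.385 and -0.0966. In WT alone, where that library plays no part, every L67 library (9.80, 9.96 and 10.1%) and every L82-G17 library (10.8, 11.2 and 10.8%) lay above every DMSO library, which 3 against 3 cannot bring below a p of 0.1.

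The V-side ends of WT joints in the window lay close to the break. In coding end libraries 99.1% ± 0.148 (SD, n = 9 arrested libraries) of junctions within 100 bp of a break lay within 10 bp of it, and from the signal end 99.7% ± 0.185. In Ku70-/- the share was 39.7% ± 5.24 and 47.4% ± 11.5. The genotypes did not overlap under any treatment, with differences of -59.4 and -52.3 percentage points. From the coding end the exact stratified permutation p was 2.50e-04, the smallest its 8000 arrangements allow (adjusted p = 0.000667). The signal end value is a description, since the break positions were peaks of the WT signal end libraries.

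With DMSO the median coding end loss in WT was 2.00 to 3.00 bases at the 5 leading sites, and at Igkv15-103 37.2% of coding ends were untrimmed against 8.67% at Igkv2-109. In Ku70-/- without the low-complexity library the median was from 8.50 bases at U2 to 22.0 at Igkv2-109, and at most 1.01% of coding ends were untrimmed. With it, the site means ran from 8 to 20.7 bases, and at Igkv16-104 the libraries had 40, 11 and 11 bases, the first being the low-complexity one. Signal ends in WT were joined intact in 97.7 to 99.1% of junctions at these sites, again a description. In Ku70-/- the intact part without the low-complexity library ran from 3.71% at Igkv1-110 to 15.7% at Igkv2-109. At Igkv15-103 the libraries had 72.6, 15.2 and 2.22%, the highest being the low-complexity one. With DMSO 46.8% of window junctions in WT had an untrimmed Jκ1 coding end and 95.5% an untrimmed Jκ1 signal end, against 0.702% and 9.64% in Ku70-/- (1.05% and 10.2% without the low-complexity library). Bases shared by both ends at a joint were counted to each end. The losses are therefore the lowest the joints allow, and the untrimmed shares the highest.

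**Figure D3:**
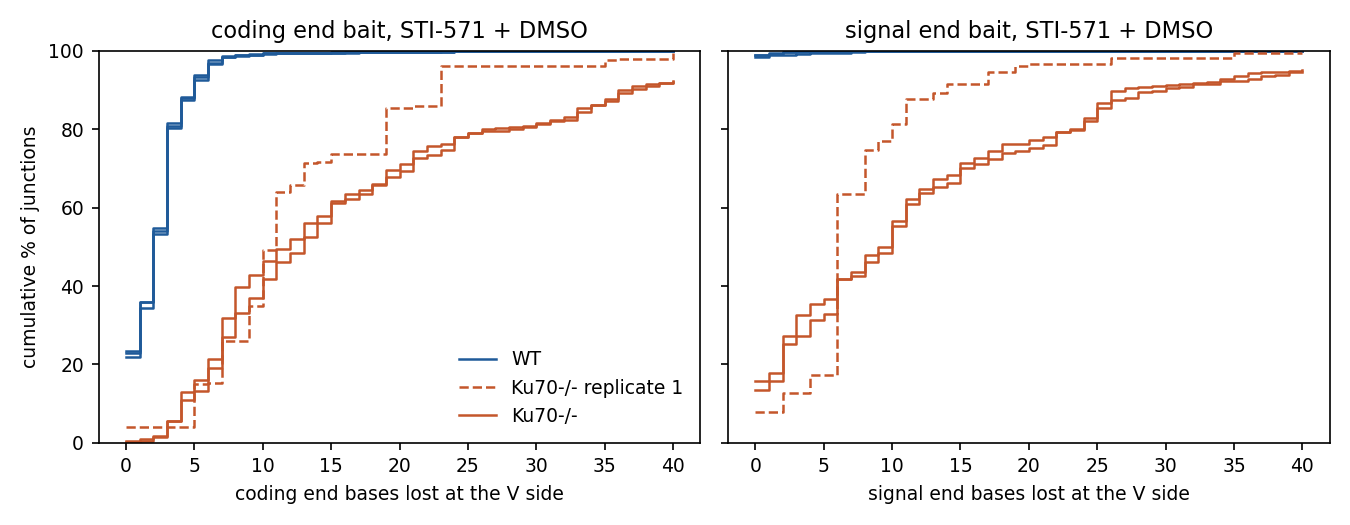
Cumulative share (%) of window junctions, among those with the prey end of the same kind as the bait, against bases lost at the V side, 1 line per library with STI-571 + DMSO; coding end bait on the left, signal end bait on the right, WT in blue and Ku70-/- in orange with the low-complexity replicate 1 dashed. WT lines reach nearly all junctions within 7 bases from the coding end and start at 98.5% or more from the signal end. Solid Ku70-/- lines rise slowly over 40 bases, and the dashed ones rise in steps, from the signal end from 17.2% at 5 bases to 63.4% at 6.

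Hybrid joints were rare in WT and frequent in Ku70-/-. In coding end libraries 0.221% ± 0.0813 (SD, n = 9) of WT junctions at window sites ended in a signal end and 23.5% ± 5.89 of Ku70-/- junctions. In signal end libraries 1.02% ± 0.346 and 19.2% ± 4.37 ended in a coding end. No libraries overlapped, and the differences were 23.2 and 18.2 percentage points. From the coding end the exact stratified permutation p was 2.50e-04 (adjusted p = 0.000667), and the signal end value is again a description. Within Ku70-/- the hybrid share from the coding end was 29.7% ± 1.40 with L67, 23.6% ± 3.32 with DMSO (25.2% over the 2 libraries without the low-complexity one) and 17.1% ± 2.52 with L82-G17 (SD, n = 3). With DMSO and without that library it ran from 14.4% at Igkv15-103 to 31.8% at Igkv16-104 among the leading sites from the coding end, and from 13.8% at U2 to 40.7% at Igkv2-109 from the signal end. At Igkv16-104 the coding end libraries had 79.8, 32.7 and 30.9%, the low-complexity one being the highest. At deletional sites outside the window the Ku70-/- coding end shares were 26.9% ± 2.30 with L67 and 17.6% ± 0.441 with L82-G17 (SD, n = 3). With DMSO they were 27.9% ± 8.06, or 23.3% without the low-complexity library. The lower share with L82-G17 was thus found outside the window too.

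The window held fewer hybrid joints than the rest of the V region in Ku70-/-. Its coding end share was 23.5% ± 5.89 against 32.3% ± 6.69, lower in 9 of 9 libraries (difference -8.86; exact sign-flip permutation p = 0.0039062, n = 9). The signal end share was 19.2% ± 4.37 against 48.3% ± 6.59, lower in 9 of 9 (difference -29.1; exact sign-flip permutation p = 0.0039062, n = 9). Most window sites are deletional and most other sites are not, and over deletional sites alone the coding end difference was -0.670 (exact p = 0.92969). The restriction to deletional sites was not planned and was chosen after seeing the data, for both baits. From the signal end the difference was -6.80 over deletional sites alone (exact p = 0.0078125), where the shares were 19.6% ± 4.38 in the window and 23.4% ± 8.17 elsewhere with DMSO (21.9% and 28% without the low-complexity library), 23.2% ± 0.884 and 33.1% ± 0.674 with L67, and 14.9% ± 2.26 and 21.5% ± 1.14 with L82-G17 (SD, n = 3). From the coding end the share within 10 bp was 39.7% in the window and 43.4% elsewhere (difference -3.69, exact sign-flip permutation p = 0.0078125, n = 9). The difference was -1.42 within 20 bp (exact p = 0.46875) and -1.13 with each distinct junction counted once (exact p = 0.0625). The neighbouring proximal part of the sub-TAD had 36.3% ± 5.18 and lay below the window in 8 of 9 libraries. From the signal end the share was not shown to differ from elsewhere (exact p = 0.91406).

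Microhomology over 1 bp, an overlap of at least 2 bases that bait and prey share at the joint, was found in 0.539% ± 0.209 of WT and 23.8% ± 2.17 of Ku70-/- junctions at window sites from the signal end (SD, n = 9), with no overlap, a description for the reason given above. From the coding end it was 12.2% ± 0.906 and 16.9% ± 6.50 (exact stratified permutation p = 0.02525, adjusted p = 0.0337, n = 9). These shares pool sites with opposite directions. At Igkv16-104 an overlap of 2 bp made up 58.8% of junctions in WT and 12.4% in Ku70-/-. At the other window sites it made up 1.70% and 10.2%, a split that was not tested. The coding end groups overlapped with DMSO, where WT held 12.1, 11.4 and 11.9% and Ku70-/- 2.08, 14.1 and 14.9%, the lowest in the low-complexity library. The differences with L67 and L82-G17 were 5.71 and 9.78 percentage points. The mean difference of 4.69 became 6.07 without the low-complexity library (exact p = 2.50e-04), and 4.06 and 3.93 without replicate 2 or 3 of that group (exact p = 0.0695 and 0.0755), where the call was lost. Insertions were fewer in Ku70-/- from both baits, at 1.63% ± 0.338 against 12.5% ± 0.867 and 0.841% ± 0.274 against 2.62% ± 0.602 (SD, n = 9; coding end exact stratified permutation p = 2.50e-04). The signal end values are again a description, with a difference of -1.78 for all insertions and -0.0700 for those of 3 bp or more. Against the rest of the V region the share with microhomology in Ku70-/- differed by -1.42 from the coding end (exact p = 0.40234) and by 2.49 from the signal end (exact p = 0.03125), a call lost in 6 of 9 leave-outs of 1 library and with each distinct junction counted once (0.887, exact p = 0.38281).

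Most of the WT coding end microhomology in the window lay at Igkv16-104. There 58.8% ± 1.86 (SD, n = 9 arrested libraries) of WT junctions had an overlap of 2 bp, between 56.2 and 61.3% in every library, against 1.70% ± 0.218 at the other window sites. Direct joints made up 28.3% ± 1.49 at Igkv16-104 and 68.7% ± 0.913 at the other sites in WT, and 50.6% ± 9.97 and 54.6% ± 6.93 in Ku70-/-. In Ku70-/- an overlap of 2 bp was found in 12.4% ± 5.83 of Igkv16-104 junctions and 10.2% ± 4.98 at the other sites, which overlapped (13.9% and 11.5% without the low-complexity library). No test was run on this split, as the site was singled out after its values were seen.

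**Figure D4:**
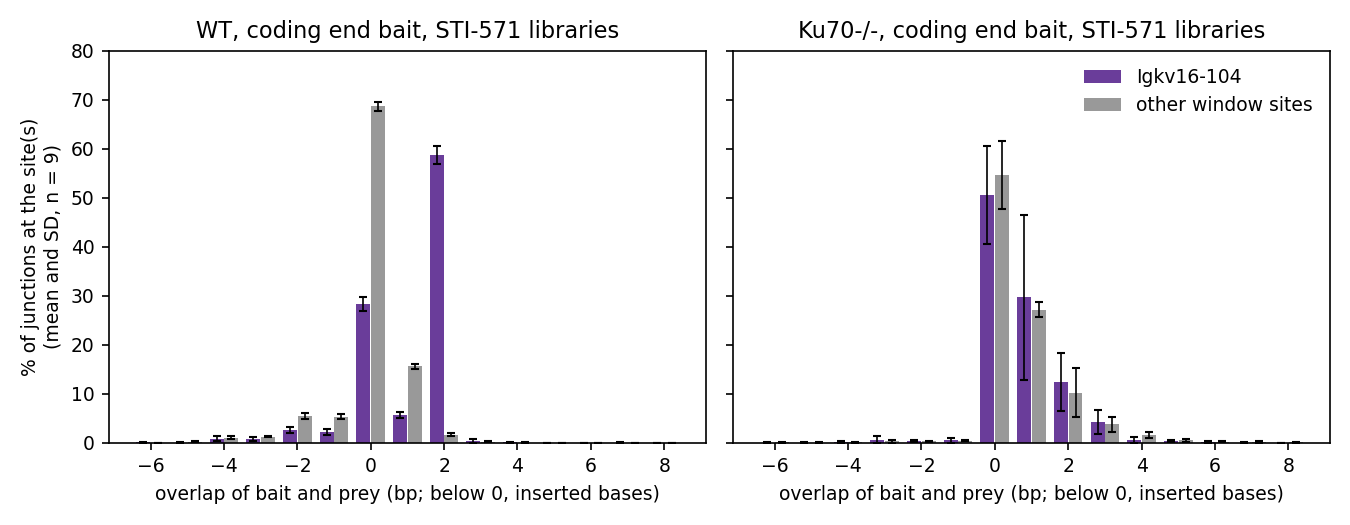
Share of junctions (%) by overlap of bait and prey in bp, with values below 0 for inserted bases, at Igkv16-104 (purple) and at the other window sites together (grey), coding end bait, mean and SD of 9 arrested libraries, WT on the left and Ku70-/- on the right. In WT the highest bar of Igkv16-104 is at 2 bp (58.8%) and that of the other sites at 0 (68.7%), in Ku70-/- both are highest at 0.

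The most frequent joints are shown for Igkv16-104 beside those of other leading sites. Each line gives 20 bases from either side of a joint, 5′ to 3′, with bases shared by both ends in capitals; coding end joints run from V to J and signal end joints from the Jκ1 bait to the prey.
Igkv16-104, WT, coding end bait: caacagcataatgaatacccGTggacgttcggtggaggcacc
Igkv1-110, WT, coding end bait: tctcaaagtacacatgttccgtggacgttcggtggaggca
U2, WT, coding end bait: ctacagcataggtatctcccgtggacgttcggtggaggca
Igkv15-103, WT, coding end bait: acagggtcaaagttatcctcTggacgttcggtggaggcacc
Igkv16-104, WT, signal end bait: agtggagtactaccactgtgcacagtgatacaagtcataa
Igkv16-104, Ku70-/-, coding end bait, to a coding end: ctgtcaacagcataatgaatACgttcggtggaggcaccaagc
Igkv16-104, Ku70-/-, coding end bait, hybrid: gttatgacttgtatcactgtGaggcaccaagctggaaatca
Igkv2-109, Ku70-/-, signal end bait: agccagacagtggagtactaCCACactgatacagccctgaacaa
The WT Igkv16-104 coding joint made up 57.2% of the junctions there, in 9 of 9 arrested libraries. The GT before its last 2 coding bases matches the GT that opens Jκ1. Counting that shared GT to both ends, 2 V bases were lost and the Jκ1 end was intact. The joint holds the GT once, so the end it came from cannot be told. At Igkv1-110 and U2 the most frequent WT joint was direct, with 3 V bases lost and Jκ1 intact (21.0 and 22.9% of junctions). At Igkv15-103 (18.8%) the ends shared a T. Counting it to both, the V end was untrimmed and the Jκ1 end 1 base short. The intact signal joint shown made up 90.7% of WT signal end junctions at Igkv16-104, and an intact joint was the most frequent at every site from that bait. This is a description, since the break positions were peaks of these libraries. In Ku70-/- the joints shown were smaller parts of their sites: the coding joint shown made up 2.48% of Igkv16-104 junctions in 8 of 9 libraries, the hybrid 3.32% in 3 (0.320% without the low-complexity library), and the signal joint at Igkv2-109, sharing CCAC, 4.38% in 8 of 9.

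Several of the most frequent Ku70-/- joints rest on copies in the low-complexity library. From the coding end it held 1323 of 1356 copies of the most frequent joint at Igkv1-110 and 1617 of 1715 at Igkv2-109. At U2, Igkv16-104 and Igkv15-103 it held 1112 of 1387, 609 of 670 and 942 of 985. From the signal end it held 431 of 511 at Igkv1-110, 697 of 697 at U2 and 873 of 1008 at Igkv15-103, but 0 of 371 at Igkv2-109. At U4 a single joint in the low-complexity library gave 933 junctions, 84.7% of all its coding end junctions, and with DMSO U4 held 0.981% in that library and 0.0139 and 0% in the other two. At Igkv16-104 from the signal end 1 joint gave 5296 junctions, 15% of the site, and 5106 of them were in the low-complexity library. Without that library it was 0.695% of the site.

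U5 differed from the other sites in WT. With DMSO and the signal end bait 53.2% ± 1.87 (SD, n = 3) of its junctions were of the other end kind, against at most 2.22% at every other site. They lay in a second pileup on the coding side, with its peak at chr6:68399701, 12 bp before the U5 break. It held 516 junctions of 17 distinct joints over the 9 arrested WT libraries: 89, 52 and 123 with DMSO, 97, 12 and 105 with L67, and 38, 0 and 0 with L82-G17. The bases from chr6:68399694-68399741 are shown on the forward strand, with the 7 bases after the peak and the U5 nonamer in capitals.
U5, second pileup: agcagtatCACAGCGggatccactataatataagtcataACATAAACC
CACAGCG has 1 mismatch to CACAGTG and lies 24 bases before that nonamer. An overlap of 1 bp or more was found in 61.0% of these junctions, and the Jκ1 signal end had lost a median of 4 bases.

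Junctions farther than 200 bp from any break site made up 0.0259 to 0.337% of window junctions in arrested WT coding end libraries and 3.33 to 6.21% in arrested WT signal end libraries. In arrested Ku70-/- libraries they made up 0.0142 to 6.43% and 0.799 to 5.38%, the lowest of each in the low-complexity library. In cycling WT libraries there were none, while in cycling Ku70-/- libraries they were 25.5 to 36.4% and 15.1 to 27.2% of the few window junctions.

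The largest pileup away from the sites lay inside Igkv15-103, in its intron, 324 bp before the break and 26 bp before the second exon, at chr6:68387596 with the prey read toward Jκ1. Counts of a pileup away from the sites are of junctions on its strand within 50 bp of its peak. The intron pileup held, in signal end libraries, 1750, 1659 and 1181 junctions in WT with DMSO, 1786, 1842 and 1944 with L67, and 621, 324 and 634 with L82-G17. As shares of V-region junctions these were 0.512, 0.505 and 0.360%, then 0.552, 0.593 and 0.670%, then 0.449, 0.264 and 0.503%. It was present in 9 of 9 arrested WT libraries and had no junction in the 3 cycling ones, a description, as it was picked as the largest pileup of these arrested libraries. Its 11741 junctions were of 186 distinct joints, 9.04% with an untrimmed bait end and 38.9% with an overlap of 1 bp, unlike the intact signal joints of the gene's own break.

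From the other bait and genotype the same stretch was used less or differently. In WT from the coding end it held 146 junctions. In Ku70-/- it held 1250 from the coding end and 1018 from the signal end, over 36 and 25 positions, with 0% at the peak base. The opposite strand around chr6:68387595 held 873 and 441, of which 8.71% and 31.5% lay at that base. In WT it held 25 from the coding end and 0 from the signal end. Both sides of the peak position were thus joined in Ku70-/-, and in WT from the signal end the side toward Jκ1 alone. The letters on the reverse strand from chr6:68387555-68387603 are shown with the 7 bases next to the pileup and the best match to the nonamer after them in capitals.
Igkv15-103 intron pileup: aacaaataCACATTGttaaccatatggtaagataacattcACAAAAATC
CACATTG has 1 mismatch to CACAGTG, and ACAAAAATC, 25 bases on, has 1 mismatch to ACAAAAACC. Over both strands of the V region 0.0978% of positions open with CAC and have at most 1 mismatch to CACAGTG, and 0.00312% also have such a nonamer match in the next 40 bases. Such a match is a description of the letters, not of a site.

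**Figure D5:**
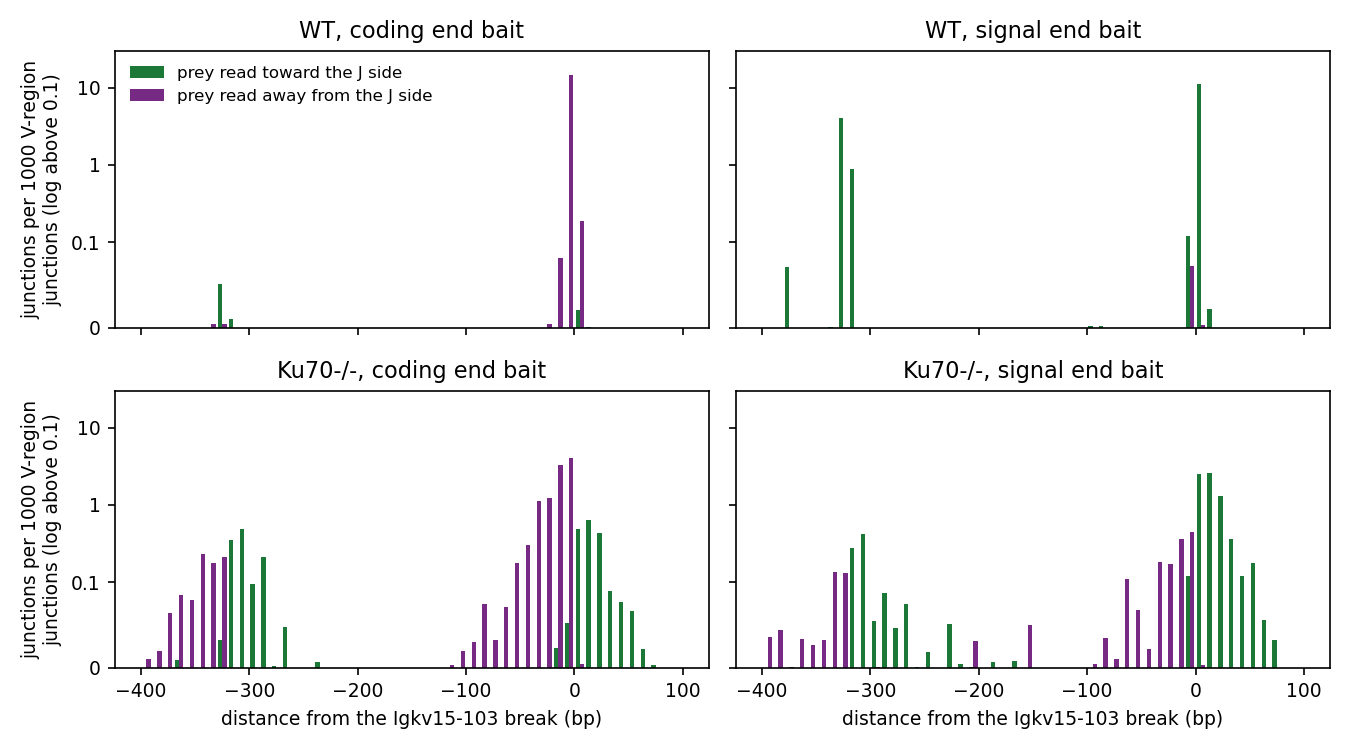
Junctions per 1000 V-region junctions (linear to 0.1, log above) in 10-bp bins by distance from the Igkv15-103 break, arrested libraries, with WT above and Ku70-/- below, coding end bait on the left and signal end bait on the right; green bars are preys read toward the J side and purple bars preys read away from it. WT bars stand at the break and, mainly from the signal end, at a second position 324 bp before it, and Ku70-/- bars spread to both sides of each position.

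Smaller pileups were those at chr6:68430879, with 798 WT signal end junctions of 30 distinct joints in 9 of 9 arrested libraries, and at chr6:68386266, with 237 in 6. Around chr6:68299440 lay 55 WT coding end junctions in 6, with 0% at that base. In Ku70-/- from the coding end the pileup at chr6:68219137 was, but for 1 junction, 1 joint with 260 copies in 9 of 9 arrested libraries, and the same stretch held 25, 50 and 51 junctions in the 3 cycling libraries. The pileup at chr6:68253461 was mainly 1 joint with 233 copies in 8 of 9 arrested libraries, and the stretch held 4, 20 and 18 in the cycling ones. The pileup at chr6:68220649 was 1 joint with 101 copies in 4 arrested Ku70-/- signal end libraries, and the stretch held 0, 0 and 11 junctions in the cycling ones. Whether a joint already present in the cycling cells was carried into the arrested libraries was not tested.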

How the data were processed

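HTGTS-JoinT-seq libraries (48, 3 in each of 16 groups) were read from the deposited junction lists, which hold 1 junction per line. The authors demultiplexed and trimmed the reads, drew 500000 read pairs per library, mapped them to mm9 with duplicates kept, and added junctions of the bait region. The deposited files give no normalized values, and all measures are counts of the junctions deposited. Copies of 1 amplified joint therefore count more than once, and counting each distinct junction once was an alternative.

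A junction was given to the nearest break site within 200 bp. Ends within 100 bp entered the share within 10 bp, and overlaps within 20 bp the joint classes. Overlapping bases were counted to both ends when losses were taken. Shares were compared with exact two-sided permutation tests stratified by treatment or genotype (8000 or 400 arrangements) or exact sign flips over libraries (512), adjusted by Benjamini-Hochberg over 24 tests. Single sites with a mean of at least 50 junctions were fitted with limma on the log2 scale, adjusted over all sites, with calls at 0.05. Fits were tested on simulated data. With a simulated log2 change of 1.5 between genotypes, 60% of changed sites were recovered from the coding end and 62.1% from the signal end. A site not called may therefore still differ.

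Sites named are the 5 with the highest mean share with STI-571 + DMSO for each genotype and bait, up to 3 called in each direction between genotypes, and the 3 largest pileups away from sites for each genotype and bait. U4, U5 with its second pileup, U6 and the other sites named were chosen after their values were seen. The window, lists and tests were chosen with earlier results of these data known. R 4.3.3, limma 3.58.1, Python 3.11.15, numpy 2.4.6, pandas 2.3.3 and matplotlib 3.10.9 were used.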

Additional observations from a re-analysis of the deposited data

Results flagged for a closer look

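The bait effect on the window share differed between the genotypes. The signal end minus coding end difference was 2.77 percentage points in WT and -1.18 in Ku70-/-, and these differed by 3.96 (permutation p = 1e-05, the smallest that 100000 resamples can give). Without the low-complexity libraries they differed by 3.43 (permutation p = 2e-05). Genotype labels were permuted within treatment and bait, so a genotype difference from 1 bait alone could also give a small p. The Ku70-/- difference carries the limits given above, and was 0.411 with L82-G17.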

How the results depend on the processing

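Over 38 results, 706 alternatives were run: 614 counted as the same, 51 lost the call or moved down, 28 gained it or moved up, and 13 reversed. For shares the same meant an unchanged direction and side of the threshold. For counts of sites called it meant an equal or similar number, and direction was not compared. For 13 results every alternative counted as the same. No paired analysis was possible because the labels give no replicate numbers, and those used here follow the order of deposit. The low-complexity libraries of both baits have the same number, but whether libraries of different baits share DNA was not tested, and tests between baits treat them as separate. The cause of the changes below was not tested.

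The window share difference between genotypes from the coding end was 0.866 (exact p = 0.11225) over junctions at V sites and reversed to -0.904 over all junctions. The L82-G17 difference from the signal end was 0.619 over all junctions (exact p = 0.065). With each distinct junction counted once, the coding end differences reversed for L67 (-0.385) and L82-G17 (-0.0966), and signal minus coding end in Ku70-/- was -0.468 (exact p = 0.652). For window minus rest in Ku70-/- from the coding end, the hybrid share over deletional sites was -0.670, and the share near the break was -1.42 within 20 bp and -1.13 counted once, with microhomology at 0.0799 counted once (reversed). From the signal end the share within 20 bp reversed to 0.387, and microhomology was 4.13 at 1 bp or more, 0.887 counted once and 2.55 over deletional sites, chosen after seeing the data. Insertions of 3 bp or more differed by -0.0700 between genotypes from the signal end.

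Window sites called, each distinct junction counted once, numbered 11 between genotypes (63.4% of all sites called), 2 with L82-G17 in Ku70-/- (19.6%) and 3 with arrest (11.8%) from the coding end. From the signal end they numbered 0 with L82-G17 in WT (1.80%; also 0 with no filter, 2.17%), 1 with L82-G17 in Ku70-/- (3.60%) and 0 with arrest (6.54%). Between baits in WT they numbered 2 counted once (23.7%), 2 with the value of 5 junctions added (7.89%) and 6 without the low-complexity libraries (51.3%), and in Ku70-/- 2 without those (12.4%).

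Leaving out 1 library at a time, the window share difference ranged from 0.497 to 1.35 between genotypes (coding end), -0.224 to 1.06 for L67 and 0.255 to 1.54 for L82-G17 (coding end), -0.166 to 0.0649 for L67 (signal end) and -1.49 to -0.637 between baits in Ku70-/-. L67 reversed at -0.224 and -0.124 from the coding end and at 0.0204, 0.0649 and 0.0625 from the signal end. Microhomology ranged from 3.93 to 6.07 between genotypes (coding end) and 2.02 to 2.95 for window minus rest (signal end), and the share within 10 bp for window minus rest (signal end) from -2.65 to 0.832, reversed at 0.115, 0.449 and 0.832. Site counts, each with the range of the percentage of all sites called, were 1 to 5 between genotypes (16.1 to 53.6%), 0 to 1 for L67 in WT (0 to 4.46%), 0 to 6 for L82-G17 in WT (3.57 to 32.1%), 0 to 1 for L67 in Ku70-/- (0 to 5.36%), 1 to 4 for L82-G17 in Ku70-/- (4.46 to 30.4%) and 0 to 2 with arrest (0.935 to 14.7%) from the coding end. From the signal end they were 1 to 7 between genotypes (20.7 to 54.5%), 0 to 1 for L82-G17 in WT (0 to 12.5%) and in Ku70-/- (0.901 to 8.04%), 2 to 6 with arrest (7.69 to 38.3%), and between baits in WT 0 to 4 (0.877 to 18.4%).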
